A study of Mus musculus with 4 samples.

Results

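The 6 genes described here encode the fibroblast growth factor (FGF) ligands Fgf3, Fgf8, Fgf9, Fgf10, Fgf18 and Fgf20 in the mouse molar tooth germ. They were chosen by gene name, and every probe that carries one of these names on the array was taken, 7 probes of 41174 and 6 genes of the 17394 that were measured. Whole first molar germs of the lower jaw of C57BL/6 embryos were pooled at embryonic day (E) 11, E12, E16 and E18, and the RNA of each pool was labelled with Cy5. Each was hybridised on its own two-colour oligonucleotide array against pooled E14 germs labelled with Cy3, so that all 4 arrays share the E14 side and no dyes were swapped. No genotype other than the strain and no treatment is labelled for any pool, and the number of germs in a pool was not given in the labels.

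FGFs are secreted proteins that bind receptor tyrosine kinases on neighbouring cells and switch on the Ras and MAP kinase pathway. In the tooth they carry signals between epithelium and mesenchyme. Fgf8 and Fgf9 are made by the early oral and dental epithelium and induce genes of the underlying neural crest mesenchyme. Fgf9 and Fgf20 are known from the enamel knot, the epithelial signalling centre of the cap stage around E14, while Fgf10 is made by the dental mesenchyme and Fgf3 by both the enamel knot and the mesenchyme. Fgf18 belongs to the same subfamily as Fgf8 and is best known from bone and cartilage.

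Each array gave a log2 ratio of the named stage over E14, so a positive value means a higher level in that stage. E14 was measured 4 times and every other stage 1 time. The normalized E14 signal of a typical gene had an SD of 0.05 log2 units between hybridisations (median over genes, with 0.12 at the 95th percentile), a spread that is technical if all arrays shared the same E14 pool, which the labels do not state. Scanner signals of Cy5 and Cy3 are given below before normalization and are not on a common scale. The median Cy5 signal also differed between arrays, at 61.3, 71.7, 67.5 and 51.5 units for E11, E12, E16 and E18. Small differences in scanner signal between stages therefore cannot be read as differences in level. The normalized ratio shows how a stage compares with E14, and stages are compared with each other through it. No p-value can be given for any single array, precision is limited by how few arrays there are, and since E14 was always in Cy3, a difference from E14 and a dye effect of a probe cannot be told apart. The Cy5 channel was well above background for 52.5% to 59.0% of probes, the Cy3 channel for 54.3% to 57.0%. The early stages, E11 and E12, shared 1 slide, and the late stages, E16 and E18, shared another. In whole germs, fewer cells of a type and less RNA per cell cannot be told apart.

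The promoters of 2 ligands are shown because their genes gave contrasting courses: Fgf3 had its highest ratio at the last stage, and Fgf18 had ratios below E14 at every other stage. The RefSeq promoter table (build GRCm38.p6) matched 4 of the 6 members, namely Fgf3, Fgf9, Fgf10 and Fgf18. The 250 bases before the annotated start are printed 5′ to 3′ on the gene's strand, with matches to the motifs named below in capitals.
Fgf3 (chr7:144838362-144838611, plus strand): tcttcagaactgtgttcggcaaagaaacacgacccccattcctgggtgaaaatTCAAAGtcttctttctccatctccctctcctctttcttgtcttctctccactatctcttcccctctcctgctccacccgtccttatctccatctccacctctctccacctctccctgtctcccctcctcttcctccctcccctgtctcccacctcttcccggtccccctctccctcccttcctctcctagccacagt
Fgf18 (chr11:33147401-33147650, minus strand): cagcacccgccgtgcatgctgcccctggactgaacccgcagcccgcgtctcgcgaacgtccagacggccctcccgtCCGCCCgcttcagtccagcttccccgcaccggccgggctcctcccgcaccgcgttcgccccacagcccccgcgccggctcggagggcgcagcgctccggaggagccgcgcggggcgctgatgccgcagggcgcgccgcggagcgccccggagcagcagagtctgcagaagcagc

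The motifs searched on both strands were TATAAA (core of the TATA box, in 12.4% of 32851 promoter windows of the same length), GGGCGG (box of the factor Sp1, in 32.7%), CCGGAA (core of ETS sites, in 12.0%), CTTTGA (core of TCF/LEF sites, in 13.8%), TAATCC (core of Pitx sites, in 6.25%), TGTGGT (core of Runx sites, in 14.0%) and TAATTA (core of homeodomain sites, in 4.84%). All have the same length, so none contains another. The Fgf3 window held 1 CTTTGA, whose first base lies 197 bases before the start, as its reverse complement. It is the stretch in capitals above. The Fgf18 and Fgf10 windows each held 1 GGGCGG, as the reverse complement. The Fgf9 window held none of the 7 motifs. G and C made up 77.2% of the Fgf18 window, 61.2% of that of Fgf10, 55.2% of that of Fgf3 and 44.8% of that of Fgf9, against a median of 52.4% over all windows. These matches describe the letters of the windows and were not compared with binding data.

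Fgf8, the early epithelial ligand, was the member with the widest change. Its main probe, placed by the array files (build mm7) on chromosome 19 at 45633777 to 45633836, was printed as 10 spots on each array. The mean Cy5 signal was 2440 units at E11 and 2304 at E12, then 65.9 at E16 and 51.6 at E18, against 119, 116, 107 and 107 units for E14 on the same arrays. The signals at E11 and E12 stood far above those at E16 and E18, which were still above their local Cy5 background of 31.0 and 30.7 units.

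After normalization the log2 ratio of Fgf8 over E14 was 2.96 at E11 and 2.58 at E12, then -1.17 at E16 and -1.01 at E18. That is 7.78-fold and 6.00-fold higher than E14 at E11 and E12, and ratios of 0.444 and 0.4975 at E16 and E18. Over the alternative processings the log2 ratio lay between 1.90 and 3.803 at E11, between 1.56 and 3.62 at E12, between -2.62 and -0.58 at E16 and between -2.59 and -0.51 at E18, always on the same side of E14. The SD over the 10 spots was 0.13, 0.08, 0.09 and 0.13 log2 units in the same order of stages, and the lowest spot at E12 (2.42) stood above the highest spot at E16 (-1.01). In the order of levels, E11 came first and then E12, E14, E18 and E16. E11 and E12 differed by 0.38 and E18 and E16 by 0.16, both under the range of 0.49 that this probe had over the 4 E14 hybridisations. Most of that range lay between the early and the late arrays, as the E14 levels given next show. It therefore cannot decide whether stages on the same slide differ.

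The scanner signal of E14 was 107 to 119 units on all arrays, while its normalized log2 level was 7.77 and 7.73 on the E11 and E12 arrays, where Cy5 was bright, and 7.28 and 7.29 on the E16 and E18 arrays. Without Aquantile scaling the SD of E14 for this probe was 0.33 in place of 0.27, so the spread does not come from that scaling alone. The part of the intensity-dependent normalization in these 4 levels was not tested.

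The other Fgf8 probe, on chromosome 19 at 45638514 to 45638573, was a single dim spot. Its Cy5 signal was 117 units at E11 and 119 at E12, then 37.8 at E16 and 35.8 at E18, against 30.2, 31.8, 28.8 and 31.0 units for E14. E14 was not well above background for it on any array, so its ratios are bounds, the bright channel set against the higher of the dim signal and the lowest signal well above background. Fgf8 was at least 1.80-fold higher at E11 and at least 1.46-fold higher at E12 than at E14 by this probe, and neither channel was well above background at E16 or E18. Both probes were brighter at E11 and E12 than at E16 and E18.

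Fgf9, the ligand shared by early dental epithelium and enamel knot, stood above E14 at every other stage measured. Its probe lies on chromosome 14 at 52977509 to 52977568. Cy5 signals were 293 units at E11 and 397 at E12, then 302 at E16 and 386 at E18, against 95.6, 92.6, 98.7 and 92.2 units for E14. The log2 ratios were 0.57 at E11 and 0.68 at E12, then 0.45 at E16 and 1.39 at E18, with a range of 0.09 over the E14 hybridisations.

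E18 therefore came first, 2.62-fold above E14, and E14 came last. E12, E11 and E16 lay between them in that order, 0.11 apart at each step, just over the E14 range of this probe. That range was taken after Aquantile scaling between arrays. Without it the SD of E14 was 0.17 in place of 0.04, wider than these steps. Whether E12, E11 and E16 differ beyond the spread of E14 thus depends on that scaling. The ratios that set their order were taken before it. Of all measured genes, 21.4% lay above E14 on all 4 arrays by any amount, so standing above E14 throughout is common here. With median centring of each array in place of the intensity-dependent correction the ratios at E11, E12 and E16 were 1.08, 1.42 and 1.06.

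Fgf20, a ligand of the enamel knot from the same subfamily as Fgf9, gave nearly the same ratio on every array. Its probe lies on chromosome 8 at 39070356 to 39070415. The Cy5 signal was 61.8 units at E11 and 73.1 at E12, then 67.8 at E16 and 49.8 at E18, against 89.2, 94.0, 92.3 and 90.8 units for E14. The log2 ratios over E14 were -0.95, -1.06, -0.95 and -0.90.

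Neighbours in the order of the 4 stages were thus not separated. The widest step between them was 0.1046, under the range of 0.1064 that the probe had in E14 (SD 0.05, or 0.13 without Aquantile scaling). E16 and E12, which are not neighbours in that order, differed by 0.111, just over that range. Every one lay below E14, as did 21.9% of all genes. The Cy5 signals were dim, over a local background of 31.0 to 33.5 units, and the scanner software's own ratios, which add no offset, placed the log2 ratio between -2.41 and -2.23. E14 stood apart from the other stages by more than its own spread between hybridisations, and whether this is stage or dye cannot be told apart.

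Fgf3, made by the enamel knot and the dental mesenchyme, had low values early and higher ones late. Its probe lies on chromosome 7, with file coordinates that run over 1860 bases (141266006 to 141267865), wider than the 60 bases of each other member probe. The Cy5 signal was 47.8 units at E11 and 43.5 at E12, then 117 at E16 and 173 at E18, against 88.0, 89.3, 91.7 and 101 units for E14. At E11 and E12 it was not well above background, where the local Cy5 background was 37.0 and 34.0 units.

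With the main normalization Fgf3 was accordingly at least 2.21-fold lower at E11 and at least 2.57-fold lower at E12 than at E14. Over the alternatives the log2 ratio lay between -3.60 and -1.06 at E11 and between -4.96 and -1.23 at E12. The values nearest E14, from median centring, fall short of these bounds. The log2 ratio was -0.46 at E16 and 0.28 at E18, the first beyond and the second just inside the range of 0.29 that the probe had in E14. In the order of levels E18 and E14 were therefore not separated, E16 came next, and E11 and E12 were last with no order between them. The E14 range was taken after Aquantile scaling, and without it the SD of E14 was 0.09 in place of 0.13. That E18 and E14 were not separated thus rests on that scaling. Under median centring the ratio at E16 was -0.06.

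Fgf10, the ligand of the dental mesenchyme, gave small ratios on every array. Its probe, on chromosome 13 at 115999939 to 115999998, was also printed as 10 spots per array. Cy5 signals were 102 units at E11 and 144 at E12, then 156 at E16 and 106 at E18, against 53.2, 55.5, 56.2 and 55.1 units for E14. The log2 ratios were 0.13, 0.21, 0.43 and 0.45, with SDs over spots of 0.05, 0.09, 0.07 and 0.07.

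E18 and E16 came first and did not differ beyond the E14 range of 0.08, nor did E12 and E11 after them. E16 was 0.22 above E12. E14 was last, 0.13 below E11. Without Aquantile scaling the SD of E14 was 0.14 in place of 0.03, as wide as that last step. Whether E14 lay below E11, or E16 above E12, by more than the range of E14 thus depends on that scaling, which does not enter the ratios. With median centring Fgf10 stood at -0.07 and -0.06 log2 units relative to the median of all genes at E11 and E12, so its side of the typical gene at these stages depends on the scaling, and its ratio at E18 (0.54) was then below that at E12 (0.58). The scanner software's ratios gave 1.04 at E18.

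Fgf18 was the member with the highest E14 values relative to the other stages. Its probe lies on chromosome 11 at 33069451 to 33069510. The Cy5 signal was 171 units at E11 and 461 at E12, then 366 at E16 and 68.9 at E18, against 445, 459, 471 and 484 units for E14. The log2 ratios over E14 were -2.21, -1.38, -1.48 and -2.88, which are 4.62-fold, 2.61-fold, 2.79-fold and 7.38-fold below E14. At E12 its Cy5 signal before normalization was close to the Cy3 signal of E14, and the ratio there rests on the scaling between dyes (the scanner software's own ratio was -1.52). At E18 the scanner software's ratio was -4.33, a larger distance from E14 than the -2.88 given here.

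All 4 stages were more than 2-fold below E14, as were 0.351% of all genes, 61 in number. In the order of levels E14 came first, followed by E12, E16, E11 and E18, and each step exceeded the E14 range of 0.08, that between E12 and E16 (0.10) only narrowly. Without Aquantile scaling the SD of E14 was 0.19 in place of 0.04, wider than the step between E12 and E16. Whether that step exceeds the spread of E14 thus depends on that scaling, which does not enter the ratios. The distance from E14 at E12 and E16 depends on the scaling: with median centring it was -0.39 and -0.67, or -1.03 and -1.24 relative to the median of all genes, which that centring moved to 0.64 and 0.57.

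**Figure D1:**
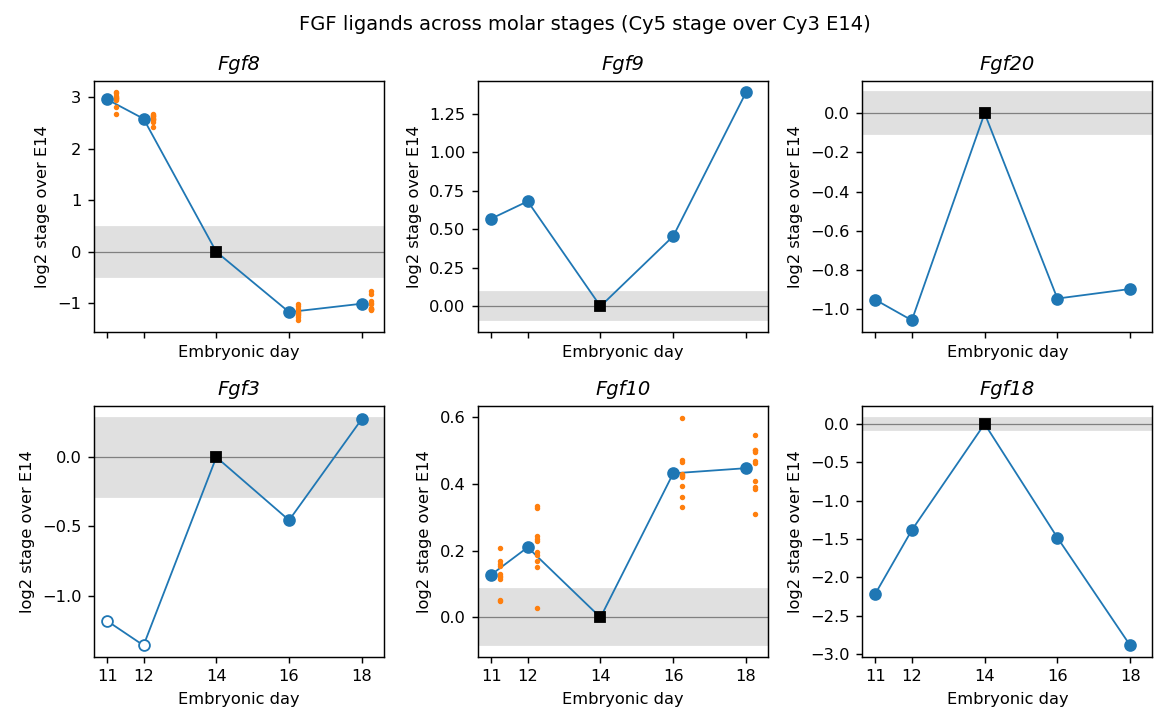
Log2 ratio of each stage over E14 (vertical axis, log2 units) by embryonic day (horizontal axis) for the 6 FGF ligands. Blue circles are arrays (open where Cy5 was not well above background), the black square is E14 at 0, orange dots are the 10 spots of the Fgf8 and Fgf10 probes, set slightly to the right, and the grey band spans plus and minus the probe's range over the E14 hybridisations. Fgf8 is at 2.96 and 2.58 at E11 and E12 and below 0 later, while Fgf18 and Fgf20 are below 0 at every other stage.

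**Figure D2:**
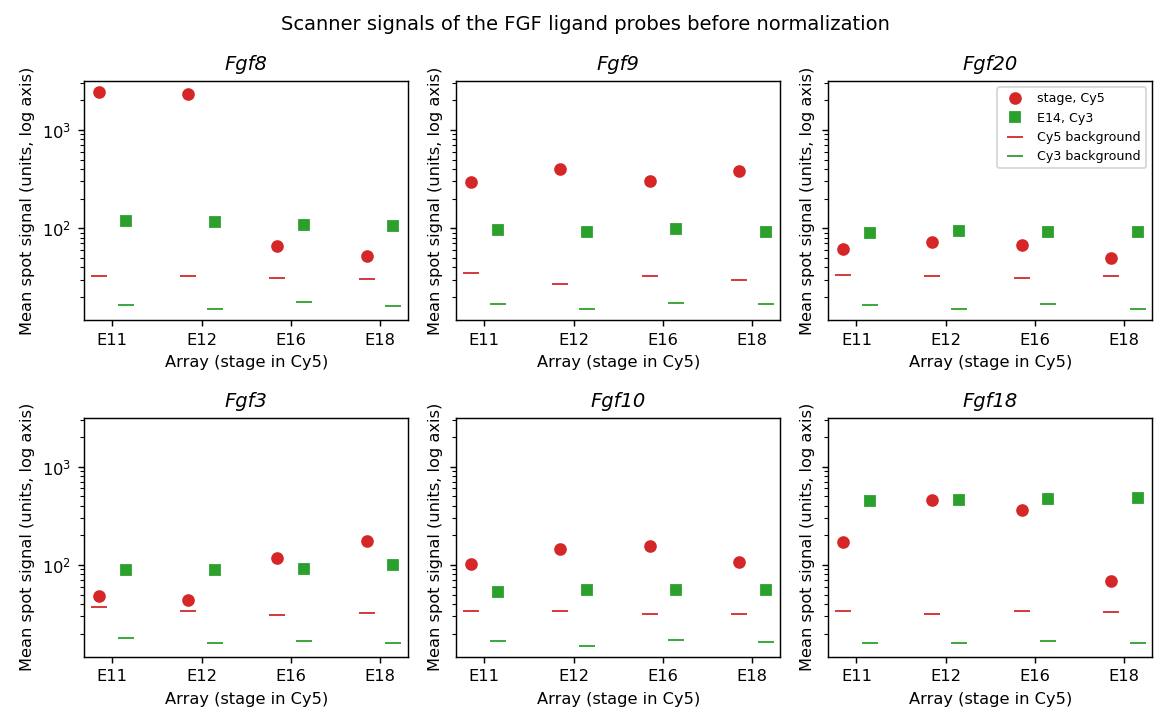
Mean spot signal before normalization (vertical axis, scanner units, log scale) on the 4 arrays (horizontal axis), with the stage in Cy5 as red circles and E14 in Cy3 as green squares. Short lines are the local backgrounds. E14 signals repeat closely for each probe, as for Fgf18 (445 to 484 units), while the Cy5 signal of Fgf8 spans 51.6 to 2440 units.

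Counted together, 3 of the 6 ligands were at least 2-fold from E14 at E11 (Fgf8 higher, Fgf3 and Fgf18 lower), against 6.47% of all measured genes (1.6% higher and 4.88% lower). At E12 the count was 4 of 6 (Fgf8 higher, Fgf3, Fgf18 and Fgf20 lower), against 2.95% (0.316% higher and 2.63% lower). At E16 it was 2 of 6 (Fgf8 and Fgf18, both lower), against 3.7% (2.01% higher and 1.7% lower). With median centring neither of these passed at E16 (-0.88 and -0.67), and Fgf9 did, as higher (1.06). At E18 it was 3 of 6 (Fgf9 higher, Fgf8 and Fgf18 lower), against 7.67% (3.81% higher and 3.86% lower). The median log2 ratio of the 6 was -0.41 at E11 and -0.42 at E12, then -0.70 at E16 and -0.31 at E18, against -0.02, -0.0036, 0.0049 and -0.01 over all genes. The members were picked as known tooth ligands with earlier results of these arrays in view, and these shares are a description. Median centring also brought Fgf9 past 2-fold at E11 and E12 and took out Fgf18 and Fgf20 at E12 and Fgf8 at E18. Without background correction Fgf20 was more than 2-fold below E14 at every stage (-1.30, -1.40, -1.26 and -1.16), and the counts were 4, 4, 3 and 4. It was so at every stage with offset 0 and with scanner ratios as well.

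To compare the other stages with each other, the ratio of 1 array was subtracted from that of another, and a dye effect that both share drops out. From E12 over E11, which share a slide, no ligand moved by 2-fold, against 0.977% of genes. The widest step was that of Fgf18, 1.77-fold higher at E12 (log2 difference 0.83, with an E14 range of 0.08). This step was past 2-fold with median centring (1.16), offset 0 (1.15), scanner ratios (1.13) and the authors' value table (1.13), and in both of these last settings the dim Fgf3 probe was also past it (-1.35 and -1.36). From E16 over E12, across slides, Fgf8 was 13.5-fold lower at E16 (-3.75), while 1.48% of genes were at least 2-fold lower. At E16 the level of Fgf3 exceeded that at E12 at least 1.87-fold, a bound since E12 was not above background, and the log2 difference lay between 0.90 and 4.06 over the alternatives.

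Within the slide that held E18 and E16, Fgf18 was 2.64-fold lower at E18 (-1.40), where 0.88% of genes were at least 2-fold lower. Fgf9 was 1.91-fold higher at E18 than at E16 (0.93) and Fgf3 1.66-fold higher (0.73). These steps exceeded the E14 ranges of their probes, while those of Fgf8 (0.16), Fgf20 (0.05) and Fgf10 (0.02) did not. For Fgf8 most of the E14 range lay between the slides, so it cannot decide this step. Over the alternative processings the E18 over E16 step lay between -2.59 and -1.40 for Fgf18, between 0.62 and 1.29 for Fgf9 and between 0.56 and 1.33 for Fgf3. For Fgf8 over the step from E12 to E16 the range was -5.82 to -2.14.

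**Figure D3:**
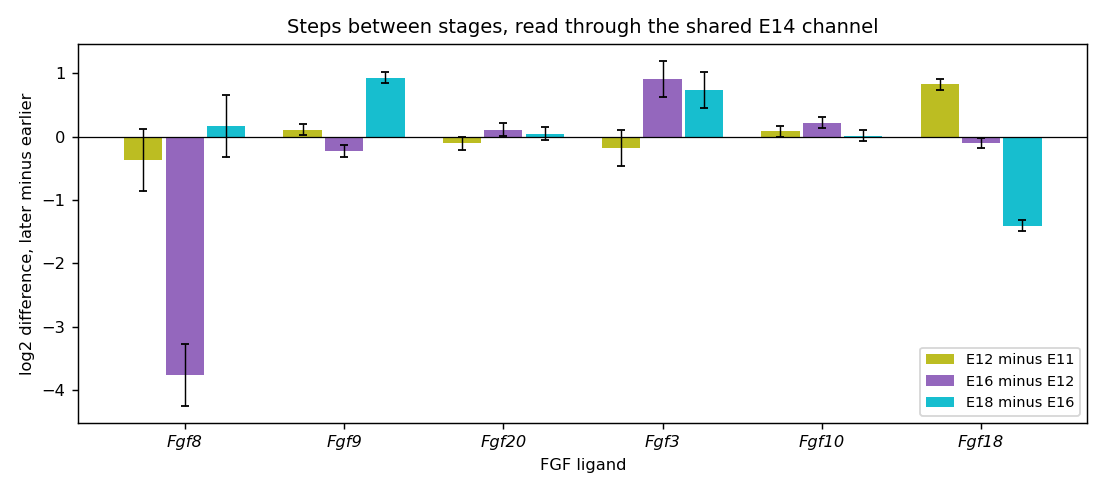
Log2 difference between stages, later minus earlier (vertical axis), for each FGF ligand (horizontal axis). Bars are single differences of 2 arrays and error bars are the probe's range over the 4 E14 hybridisations. Fgf3 bars that involve E11 or E12 rest on signals not well above background. The step of -3.75 for Fgf8 between E12 and E16 is the longest bar, and Fgf18 goes down by 1.40 and Fgf9 up by 0.93 between E16 and E18.

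A linear trend over the embryonic days of the 4 arrays was the test that the design allowed, fitted with limma across all 17394 genes with Benjamini-Hochberg adjustment. Fgf8 fell, with a slope of -0.65 ± 0.08 log2 units per day (SE, adjusted p = 0.0108), and Fgf3 rose, with a slope of 0.22 ± 0.03 (adjusted p = 0.0161), although its early values rest on signals not well above background. Of all genes 8.9% passed, 2.64% falling and 6.26% rising. Fgf9 had a slope of 0.08 ± 0.05 (adjusted p = 0.338), Fgf10 one of 0.05 ± 0.02 (adjusted p = 0.222), Fgf18 one of -0.10 ± 0.08 (adjusted p = 0.484) and Fgf20 one of 0.01 ± 0.02 (adjusted p = 0.696). E14, the stage at which Fgf18 and Fgf20 were highest, has no array of its own in this fit.

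With slide as a block limma called 0 of the 17394 genes and 577 (3.32%) had an unadjusted p under 0.05. The slope of Fgf8 was then -0.0099 ± 0.17 and that of Fgf3 0.26 ± 0.12, since a blocked slope uses only the steps within slides. The calls of both genes also ended without the E11 array (adjusted p = 0.0814 for Fgf8 and 0.0536 for Fgf3 by limma) and without the E12 array (adjusted p = 0.0534 and 0.0602). The 2 residual degrees of freedom hold array noise, curvature and differences between pools, which cannot be told apart.

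**Figure D4:**
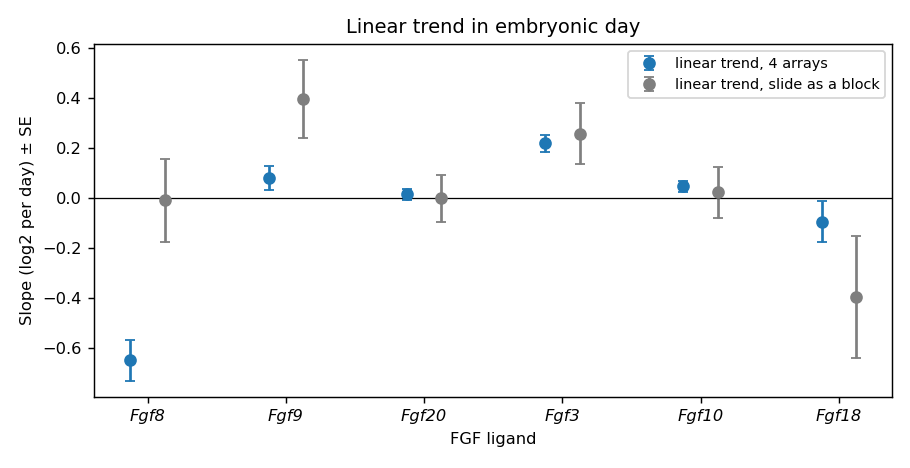
Slope of the log2 ratio in embryonic day (vertical axis, log2 units per day, bars are SE) for each FGF ligand (horizontal axis), from the fit to 4 arrays (blue) and from the fit with slide as a block (grey). Fgf8 is at -0.65 in the first fit and near 0 in the second, and Fgf3 is above 0 in both (0.22 and 0.26).

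The labelled tissue was checked by its markers. All 10 dental epithelium markers and all 10 dental mesenchyme markers were measured, and both sets were well above background in E14 on every array. Of the epithelial markers 9 rose and none fell, and their median log2 ratio was -1.42 at E11 and -0.69 at E12, then 1.32 at E16 and 1.36 at E18 (ranges -3.35 to -0.12, -2.86 to -0.09, 0.48 to 2.27 and -0.35 to 4.03). At E11, 8 of the 10 were well above background in Cy5. Of the mesenchymal markers none rose and 7 fell, with medians of 0.06, 0.0029, -0.79 and -2.07 (ranges -3.51 to 1.07, -2.28 to 0.97, -2.72 to 0.05 and -3.92 to -0.89).

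The epithelial ligand Fgf8 was thus lowest at the stages where the epithelial markers were highest. Fgf3 had its highest ratio at E18, where all 10 mesenchymal markers lay below E14. The part of tissue proportions in the ligands' values was not tested.

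Markers of other cells moved as well. Of 8 erythroid genes 3 fell and none rose, with medians of 1.11, 0.35, -0.79 and -0.62 at E11, E12, E16 and E18. Of 6 measured genes of keratinizing oral epithelium 2 rose, with medians of -0.54, -0.48, 1.59 and 0.33. Of 7 cartilage and bone genes 2 rose and 1 fell (medians -0.09, -0.05, 0.75 and 0.43), while none of 8 endothelial and blood cell genes (medians -0.38, -0.25, -0.14 and -0.33) and none of 5 skeletal muscle genes (0.23, -0.20, 0.04 and 0.0009) passed. Of the factors that define skeletal muscle, Myod1, Myf5 and Myf6 were not measured above background. Myog was measured, with Cy5 well above background at E11 and E12 (log2 ratios 0.59 and 0.14). The part of these other cells in the ligands' values was not tested.

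The other measured genes of the pathway had smaller slopes than Fgf8. Of 16 other FGF genes 15 were on the array and 8 were measured, and none passed the trend test. This list includes the intracellular FGF homologous factors Fgf11 to Fgf14. Fgf13, one of them, had the steepest slope (-0.19 ± 0.05, adjusted p = 0.0695 by limma), with log2 ratios of 0.53, 1.13, -0.37 and -0.40 at E11, E12, E16 and E18, and it was the only one of the 8 at least 2-fold from E14 at any stage. Fgf11 had a slope of 0.10 ± 0.04 and Fgf1 one of 0.04 ± 0.02, with Fgf1 above background in Cy5 on 1 array. Fgf7, a mesenchymal ligand of the Fgf10 subfamily, was above background in Cy5 on 1 array and gave ratios between -0.24 and -0.0069.

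Of 9 measured receptors and cofactors 1 rose and 1 fell. Fgfr2, whose epithelial isoform binds Fgf3 and Fgf10, rose by 0.34 ± 0.06 per day (adjusted p = 0.0254 by limma), with ratios of -1.48, -1.06, 0.97 and 0.62, but its slope was -0.06 ± 0.18 with slide as a block. Fgfrl1, a receptor without a kinase domain, fell by 0.14 ± 0.03 per day (adjusted p = 0.0421), with ratios of 0.68, 0.42, -0.04 and -0.34. Fgfr1, another FGF receptor, was at -1.06, -0.66, -0.20 and -0.22 and did not pass (0.12 ± 0.03, adjusted p = 0.0931 by limma). The median slope of the 9 was 0.02, against -0.0021 over all genes.

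Of 11 measured response and feedback genes 1 rose and none fell, with a median slope of -0.0049. Etv4, an ETS factor induced by FGF signals, rose by 0.18 ± 0.04 per day (adjusted p = 0.0326), with ratios of -1.39, -1.64, -0.76 and -0.24. Dusp6, the MAP kinase phosphatase of FGF feedback, had ratios of -0.20, -0.83, -0.94 and -1.23 and did not pass (-0.11 ± 0.04, adjusted p = 0.106). Il17rd, an FGF antagonist, stood above E14 at all stages (1.05, 0.72, 0.59 and 0.99). Those 3 were the only ones of the 11 at least 2-fold from E14 at any stage, while the Sprouty genes Spry1, Spry2 and Spry4 stayed between -0.27 and 0.52.

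**Figure D5:**
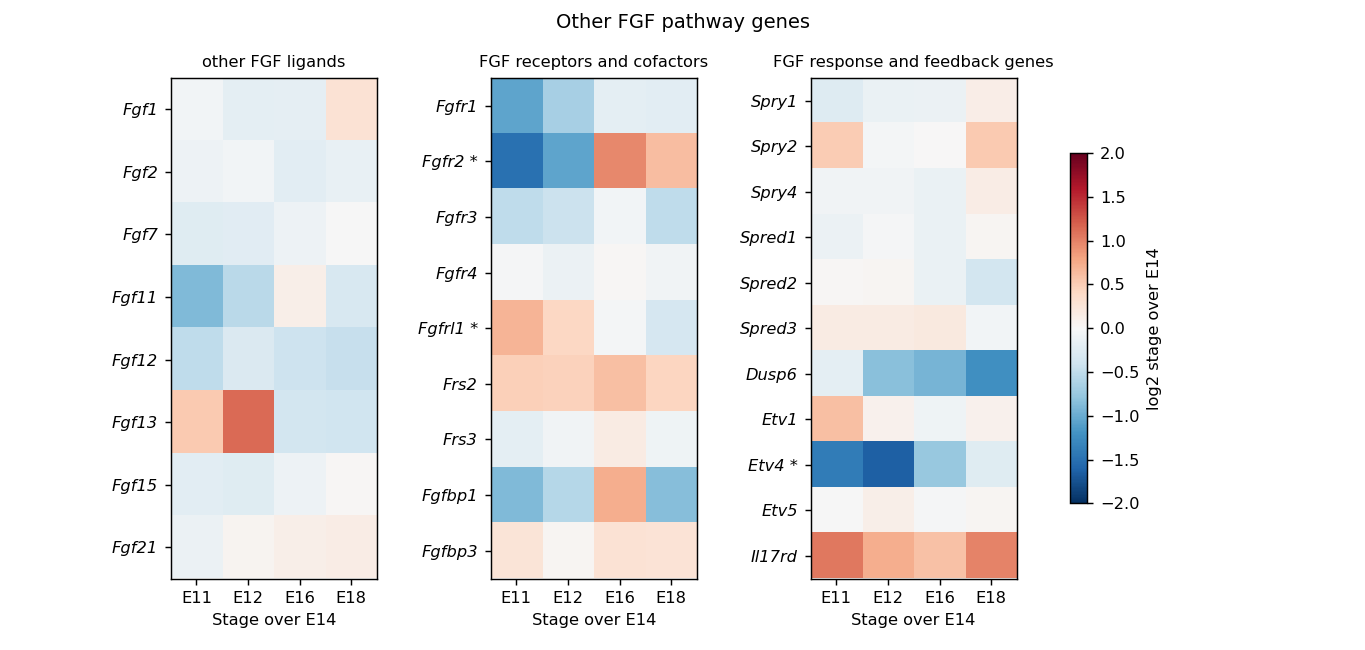
Log2 ratio over E14 (colour, log2 units, limited to plus or minus 2) at each stage (columns) for the measured genes of 3 FGF pathway lists (rows). Asterisks mark genes with a linear trend at an adjusted p under 0.05, which are Fgfr2, Fgfrl1 and Etv4.

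The genes most like each ligand were found by the Euclidean distance between their 4 log2 ratios and those of the ligand, among the 13640 other genes well above background in both channels on all 4 arrays. Nearest to Fgf8 were Asb4 (distance 0.73 log2 units), Car14 (1.35) and Dlk1 (1.62), and no gene lay within 0.5. Nearest to Fgf18 were Prss12 (0.53), Sp5 (0.60) and Postn (0.64), again with none within 0.5. Asb4 had ratios of 3.52, 2.62, -1.08 and -1.46 at E11, E12, E16 and E18, and Prss12 ratios of -2.14, -1.23, -1.98 and -2.79.

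More genes lay within this distance of the remaining ligands, whose ratios were smaller in size. Fewer genes have large ratios, so these counts do not rank how common the shape of a course is. Within 0.5 log2 units lay 20 genes for Fgf9, led by Tpd52l1 (0.31), Glcci1 (0.31) and Slc35g1 (0.34), and 67 for Fgf20, led by Crhr1 (0.14), Cxxc5 (0.15) and a transcript without a gene symbol (0.16). For Fgf10, whose ratios were small, 2089 genes did, led by Parn (0.08), Coq9 (0.08) and Kif16b (0.09). Fgf3 was not well above background on all arrays and was left out of this search.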

How the data were processed

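Per the file headers, the authors scanned the arrays and read them with Agilent Feature Extraction 10.5.1.1, also named without a version in the submitters' processing notes. Each deposited scanner file gives linear intensity and flags for every spot, and its LogRatio is log10 of Cy5 over Cy3. The deposited series value table held the same log10 ratios: 100% matched within 0.0051 on every array, with column medians of 0, which settled scale and direction.

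Samples were grouped by labelled stage, 1 array each. The package limma 3.58.1 (R 4.3.3) turned intensity into log2 ratios: normexp background correction (offset 50, which pulls ratios of dim genes towards 0), loess within arrays, control and outlier-flagged spots (92 to 126 per array) left out, spots of a probe averaged. No spot was saturated. Channel levels for E14 spread and bounds were taken after Aquantile. Of 41174 probes, RefSeq gave names to 22951 by accession, to 6659 by symbol and to 3109 by synonym. A gene was represented by its brightest probe, and it was measured where that passed the background flag on 1 or more arrays in Cy5 or 2 or more in Cy3. The trend used lmFit and eBayes with an intensity trend and was tested on simulated data.

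Members and lists were chosen with earlier results of these data known. Of each list the genes past an adjusted p of 0.05 were named, or up to 3 with the steepest slopes, genes in counts of 5 or fewer, and the 3 nearest genes of each ligand. Fgf7, Fgfr1 and the Sprouty genes were named after their values were seen. Whether probes lie in coding exons or UTRs was not analysed here. Alternatives were no background correction, offset 0, median centring, scanner ratios, the value table, the mean of a gene's probes, a filter on both channels, no filter, slide as a block and leaving out each array.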

Additional observations from a re-analysis of the deposited data

Results flagged for a closer look

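The normalized E14 level of Fgf18 over the 4 hybridisations was singled out because 1 value stood apart. It was 9.47 on the E12 array, against 9.39, 9.40 and 9.40 log2 units on the E11, E16 and E18 arrays. The gap over the whole range was 0.829031, just over Dixon's critical value for 4 values. The scanner signals of the same spots were 459 units on the E12 array and 445, 471 and 484 on the others, so the E12 array was not at an end before normalization. Chance flags about 1 in 20 such groups, and all 7 member probes were searched in this way.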

How the results depend on the processing

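All 24 ratios of the 6 ligands kept their side of E14 under each of the 8 alternative processings that gave a value (7 for Fgf3, which the filter on both channels left out). The filter on both channels and no filter returned the main ratios, and the mean of a gene's probes changed only those of Fgf8. The value table repeated the scanner ratios, so the 8 are not independent checks. Genes at least 2-fold from E14 numbered 1126 at E11 and 513 at E12, then 644 at E16 and 1334 at E18. Scanner log ratios gave 3847, 2249, 2877 and 4508, the authors' value table gave 3836, 2242, 2872 and 4497, median centring 4556, 5790, 4297 and 2310, and normexp with offset 0 gave 2718, 1402, 1874 and 3138. Of these genes 24.7%, 10.7%, 54.2% and 49.7% were higher, against 39.9% and 37.9% at E11 and E12 by scanner ratios, 93.7%, 97.8%, 99.0% and 87.5% with median centring, and 24.5% at E12 with offset 0. Ligands at least 2-fold from E14 at E16 numbered 1 in place of 2 with median centring (Fgf9, higher, and no longer Fgf8 or Fgf18) or with the mean of all probes (Fgf18), and at E18 numbered 5 in place of 3 with scanner ratios or the value table (Fgf10 and Fgf20 added). Without Aquantile scaling the SD of E14 was 0.17 for Fgf9, 0.14 for Fgf10, 0.19 for Fgf18 and 0.13 for Fgf20, in place of 0.04, 0.03, 0.04 and 0.05.

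Between stages, 170 genes were apart for E12 over E11 (261 without background correction, 1674 with scanner ratios, 391 with median centring, 864 with offset 0), 1091 for E16 over E12 (3733 with scanner ratios, 2602 with offset 0), 238 for E18 over E16 (1693, 659 with median centring and 889) and 1472 for E18 over E11 (4468, 2366 and 3223).

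The trend called 1548 genes, 0 with slide as a block and 214 to 2373 without 1 array (214 without E11, 372 without E12, 2373 without E16). Of the ligands 2 passed, 1 with the filter on both channels, which removes Fgf3, 0 with slide as a block and 0 to 3 without 1 array (0 without E11 or E12, 3 without E16). Without 1 array the slope was 0.17 to 0.27 for Fgf3, -0.86 to -0.58 for Fgf8, -0.032 to 0.12 for Fgf9 (-0.032 without E18), -0.22 to 0.10 for Fgf18 (0.10 without E18, and -0.15 with an adjusted p of 0.042 by limma without E16) and 0.0066 to 0.03 for Fgf20. That of Fgf20 turned to -0.0152 with scanner ratios, -0.0065 with median centring and -0.0014 with slide as a block. With slide as a block Fgf3 was at 0.26 and Fgf8 at -0.0099. The mean of both probes gave Fgf8 a slope of -0.39. The causes of these shifts were not tested. No paired analysis was possible because each stage has 1 array.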
